A study of Mus musculus with 12 samples.

Results

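Interferon-stimulated genes were followed in B16-OVA, a melanoma cell line of the mouse made to express ovalbumin as a model antigen, grown in culture with the MEK inhibitor GDC-0623 (MEKi) or with its solvent DMSO. The list named 41 genes that interferons are known to induce, and 39 of them were read from a probe set (a group of array probes that measures 1 transcript) that the array annotation pairs with that gene alone. They stood among 18194 genes measured in that way. For Isg15 and Ifi44 no such probe set was at hand, and both were not analysed here. The 4 groups were MEKi at 100 nM and DMSO, each for 24 h and for 72 h, and each group had 3 arrays. All were of the same line. The labels name no other agent, and the authors list blasticidin in the culture medium of this line. Whether it was present during treatment is not stated. The arrays are called biological replicates, but nothing says that they came from separate cultures, so the p-values speak only for the scatter among these samples, part or all of which may be technical. A level is given as log2 signal, on which a step of 1 is a doubling, and a gene was called where its adjusted p in limma was under 0.05.

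Interferons are secreted proteins that cells release when they sense foreign or misplaced nucleic acid. Type I interferon binds the receptor pair IFNAR1 and IFNAR2, whose kinases switch on a complex with STAT2 and IRF9 that binds the interferon-stimulated response element in the promoters of its target genes. Interferon gamma acts at another motif, the gamma-activated site. The genes so induced block viral RNA and protein synthesis, sense viral RNA, tag proteins and carry the signal on, and in tumor cells many of them can be active without infection. MEK is the kinase that activates ERK, the last step of the RAS and RAF growth pathway, which is active in melanoma.

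Of 13 measured genes that ERK activity is known to keep high, 11 were lower with MEKi at 24 h and 0 higher, and at 72 h 7 were lower and 1, Phlda1, higher (0.43, adjusted p = 0.013). Dusp6, a phosphatase that ERK induces, fell by 1.41 on the log2 scale at 24 h and by 1.29 at 72 h (adjusted p = 0.00401 and 0.000671). Spry4, a feedback inhibitor, fell by 2.08 and 0.58 (adjusted p = 0.000517 and 0.0452), and the transcription factor Etv5 fell by 4.06 and 1.29 (adjusted p = 0.00256 and 0.000744). One MEKi array stood apart at 24 h, with an Etv5 signal of 6.08 on array 3 and of 4.35 and 4.22 on arrays 1 and 2, and the same array had 10.58 for Dusp6 where the other MEKi arrays had 9.95 and 9.88. At 72 h MEKi array 3 stood apart, with an Egr1 signal of 9.87 where the other MEKi arrays had 5.91 and 6.47, and a Fos signal of 9.42 where they had 7.65 and 8.06. Its Egr1 signal was below the DMSO arrays (10.47, 10.30 and 10.91), and its Fos signal lay within their range (8.79, 9.11 and 9.52). For the members, the calls of MEKi against DMSO and of the difference of the effects are also given without these arrays. The differences and counts of ERK genes above rest on all arrays. All 10 melanocyte markers lay between 9.86 and 14.37 on every array, and each of 14 immune markers lay between 2.81 and 6.64. RNA came from whole cultures, so more expressing cells and more RNA per cell cannot be told apart.

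Promoter sequences were taken from RefSeq (GRCm38.p6) to show the element through which these genes are known to respond. A window of 250 bases before to 50 bases after the transcription start was given for 32 of the 41 genes. The core of the interferon-stimulated response element, GAAANNGAAA on either strand, was found in windows of 19 of the 32 (59.4%), against 3.99% of 27025 genes and 3.44% of all 32851 windows. A core of the gamma-activated site, TTCNNNGAA, which reads the same on both strands, was found in 11 of the 32 (34.4%), against 9.55% of genes and 8.3% of windows. Both were found in 7 members, and in Bst2 and Ifitm3 the matches shared bases. The 160 bases before the start are shown for members that rose with MEKi (Ifit1, Ifit3, Rsad2, Gbp2), for members that were lower at 24 h (Gbp3, Trim25) and for 1 member that was called in neither comparison with DMSO (Oas1a). They lie at chr19:34640729-34640888 on the plus strand for Ifit1, chr19:34583369-34583528 on the plus strand for Ifit3, chr12:26456453-26456612 on the minus strand for Rsad2, and chr3:142620503-142620662 on the plus strand for Gbp2. Those of Gbp3, the window with most matches, lie at chr3:142559884-142560043 on the plus strand, those of Trim25 at chr11:88999243-88999402 on the plus strand and those of Oas1a at chr5:120907526-120907685 on the minus strand. Each runs 5′ to 3′ in the direction of the gene and ends at the base before the start, and capitals mark the first motif.
Ifit1: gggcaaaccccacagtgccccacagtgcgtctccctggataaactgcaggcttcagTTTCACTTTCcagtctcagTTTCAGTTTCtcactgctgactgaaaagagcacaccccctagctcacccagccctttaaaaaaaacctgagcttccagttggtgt
Ifit3: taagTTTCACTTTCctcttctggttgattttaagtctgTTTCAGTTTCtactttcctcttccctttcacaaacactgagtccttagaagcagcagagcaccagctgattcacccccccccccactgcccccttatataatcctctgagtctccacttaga
Rsad2: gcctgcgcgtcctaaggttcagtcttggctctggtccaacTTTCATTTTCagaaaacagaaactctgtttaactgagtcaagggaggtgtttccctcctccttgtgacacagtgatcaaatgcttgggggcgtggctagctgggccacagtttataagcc
Gbp2: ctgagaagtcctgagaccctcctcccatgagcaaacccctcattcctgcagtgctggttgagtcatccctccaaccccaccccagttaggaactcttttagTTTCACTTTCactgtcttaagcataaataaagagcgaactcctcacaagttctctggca
Gbp3: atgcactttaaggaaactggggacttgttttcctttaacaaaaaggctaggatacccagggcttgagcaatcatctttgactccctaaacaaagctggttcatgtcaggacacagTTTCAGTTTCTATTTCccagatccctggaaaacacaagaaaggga
Trim25: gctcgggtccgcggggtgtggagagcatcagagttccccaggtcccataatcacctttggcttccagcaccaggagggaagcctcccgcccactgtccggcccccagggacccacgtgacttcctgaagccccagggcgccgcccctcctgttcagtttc
Oas1a: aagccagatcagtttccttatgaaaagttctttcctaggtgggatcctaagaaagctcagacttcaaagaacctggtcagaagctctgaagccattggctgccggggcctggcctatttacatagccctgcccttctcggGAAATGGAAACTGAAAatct
Ifit1 and Ifit3 each had 2 copies of the core, Rsad2 and Gbp2 had 1, and Trim25 had none in its window. In Gbp3 and Oas1a, 2 matches overlapped. The printed motif is thus shared by members that rose with MEKi, a member that was lower at 24 h and a member called in neither comparison with DMSO.

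**Figure D1:**
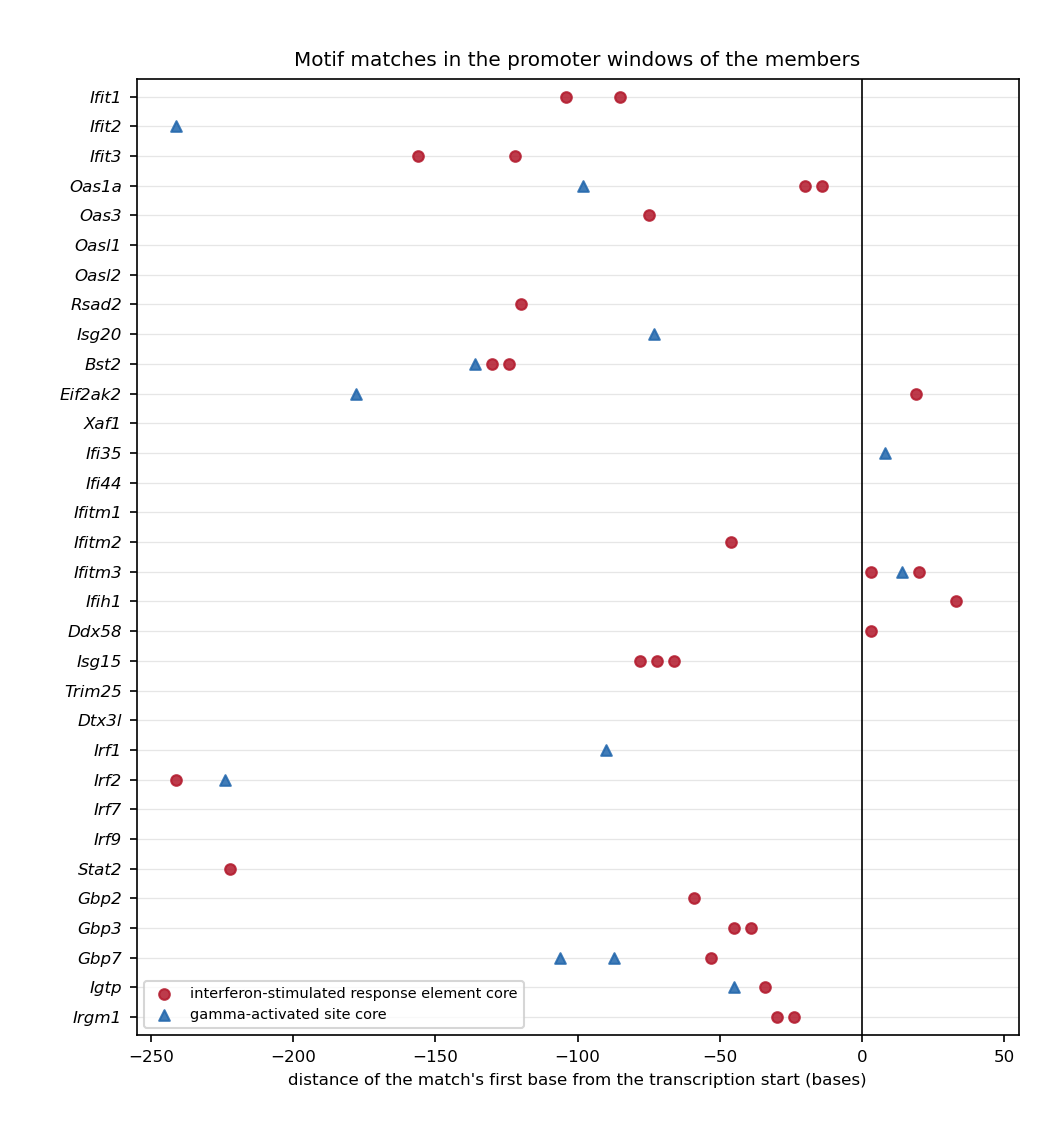
Motif matches in the promoter windows of the 32 members with a window, 1 row per gene, by the distance in bases of the first base of a match from the transcription start (vertical line). Circles are the core of the interferon-stimulated response element and triangles that of the gamma-activated site, over all windows of a gene. Of 28 matches of the first core, 20 began within 130 bases before the start and 5 after it.

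With MEKi, 5 members were higher at both times: Rsad2, Xaf1, Ifi27, Ifi35 and Ifit3. The share of all genes higher at both times was not computed, and it cannot exceed the 4.03% higher at 72 h. At 24 h 6 of 39 members were called higher, against a background of 5.01% of all genes, and 2 were called lower, against 5.86%. At 72 h 9 of 39 were called higher, against 4.03%, and 0 lower, against 5.14%. Before adjustment, limma put 2 members on the lower side at 72 h with p under 0.05, Ifitm2 and Dtx3l. The median log2 difference over the members was 0.05 at 24 h and 0.17 at 72 h, where that of all genes was 0.01 at each time. All calls were among the 28 members brighter than the median probe set, of which 21.4% were called higher at 24 h and 32.1% at 72 h, beside 7.59% and 6.19% of all genes in that range. The 3 MEKi arrays lay above the 3 DMSO arrays for 6 members at 24 h (16.2% of all genes) and for 13 at 72 h (14.7%), and below them for 6 at 24 h (18.3%) and for 2 at 72 h (14.4%).

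**Figure D2:**
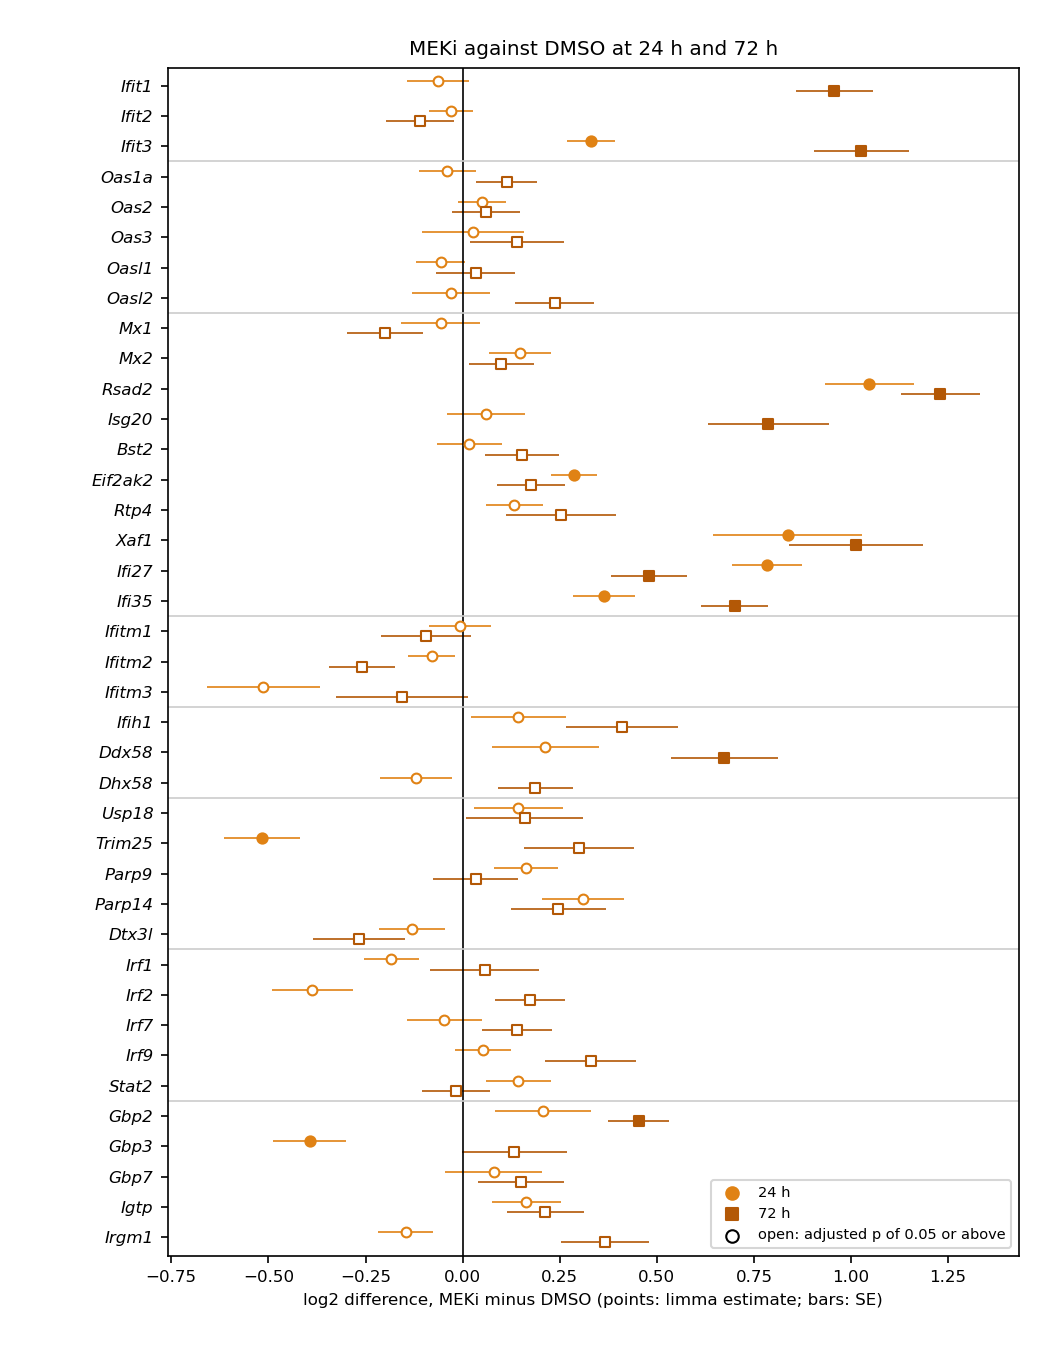
Log2 difference of MEKi minus DMSO for each of 39 members (rows, in blocks by role) at 24 h (circles) and at 72 h (squares), with bars for the SE. Filled symbols passed an adjusted p of 0.05: 8 members at 24 h and 9 at 72 h.

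The IFIT proteins bind viral RNA and block its translation. Of their genes, Ifit3 was called higher with MEKi at both times, Ifit1 at 72 h and Ifit2 at neither. Ifit1 read 5.51, 5.63 and 5.51 with MEKi at 24 h, against 5.58, 5.75 and 5.51 with DMSO. Its 72 h signals were 7.49, 7.26 and 7.25 with MEKi, against 6.51, 6.30 and 6.32 with DMSO. The arrays overlapped at 24 h, and at 72 h every MEKi array was above every DMSO array. The log2 difference was -0.06 ± 0.08 (SE, limma) at 24 h and 0.96 ± 0.10 at 72 h, 1.94-fold (adjusted p = 0.704 and 0.00107). Ifit3 read 6.34, 6.35 and 6.31 with MEKi at 24 h, against 5.96, 6.07 and 5.98 with DMSO, and 8.03, 7.58 and 7.60 with MEKi at 72 h, against 6.77, 6.73 and 6.63 with DMSO. The groups did not overlap at either time. Its difference was 0.33 ± 0.06 at 24 h and 1.03 ± 0.12 at 72 h, 2.04-fold (adjusted p = 0.0164 and 0.00176). Mouse Ifit3 has a near-identical copy, Ifit3b, whose transcripts its probes could also bind. Ifit2, which in the RefSeq gene table (GRCm38.p6) lies next to Ifit3, was not called: it averaged 9.96 with MEKi and 9.99 with DMSO at 24 h, and 9.74 with MEKi and 9.85 with DMSO at 72 h.

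Of 10 measured genes in the group of Mx proteins and other antiviral effectors, 5 rose with MEKi at 24 h and 5 at 72 h. Rsad2 encodes viperin, an enzyme that makes a chain-terminating nucleotide. It read 9.09, 9.16 and 8.86 with MEKi at 24 h, against 8.13, 8.07 and 7.77 with DMSO. After 72 h the readings were 10.75, 10.80 and 10.66 with MEKi, against 9.63, 9.58 and 9.31 with DMSO. No MEKi array overlapped a DMSO array, and the difference was 1.05 ± 0.11 at 24 h, 2.07-fold, and 1.23 ± 0.10 at 72 h, 2.35-fold (adjusted p = 0.00307 and 0.000577), the largest of any member at both times. Its other 2 probe sets gave 0.84 and 1.16 at 24 h and 1.27 and 1.3 at 72 h. Cmpk2, the neighbour of Rsad2 in the genome and a supplier of the nucleotide that viperin uses, is given below with the wider pathway.

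Xaf1, an antagonist of an inhibitor of apoptosis, read 6.94, 6.94 and 6.22 with MEKi at 24 h, against 5.99, 5.96 and 5.64 with DMSO. At 72 h it read 8.39, 7.64 and 7.89 with MEKi, against 7.16, 6.83 and 6.89 with DMSO. The low MEKi array at 24 h was array 3, the one with the weaker fall of Etv5, and the lowest DMSO array was also array 3. The difference was 0.84 ± 0.19 at 24 h (adjusted p = 0.0339) and 1.01 ± 0.17 at 72 h, 2.02-fold (adjusted p = 0.00794). At 24 h it was 1.08 without MEKi array 3 (adjusted p = 0.0046). The other probe set of Xaf1, which was dimmer, gave 0.10 at 24 h and 0.04 at 72 h and was not called. Ifi27, a small mitochondrial and nuclear membrane protein, read 10.46, 10.47 and 10.18 with MEKi at 24 h, against 9.60, 9.64 and 9.52 with DMSO. Its 72 h signals were 11.47, 11.31 and 11.55 with MEKi, against 11.04, 10.82 and 11.03 with DMSO. It was higher by 0.78 ± 0.09 at 24 h and by 0.48 ± 0.10 at 72 h (adjusted p = 0.00367 and 0.0179), and its other probe set gave 0.77 at 24 h and 0.54 at 72 h.

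Ifi35, a partner of the STAT-binding protein NMI, read 8.76, 8.72 and 8.58 with MEKi at 24 h, against 8.43, 8.22 and 8.32 with DMSO. After 72 h the readings were 9.82, 9.70 and 9.67 with MEKi, against 9.07, 9.09 and 8.93 with DMSO. The arrays were apart at both times, by 0.36 ± 0.08 at 24 h and 0.70 ± 0.09 at 72 h (adjusted p = 0.0289 and 0.00197). Its other 2 probe sets were called at 72 h, with 0.59 and 0.50, and not at 24 h, with 0.15 and 0.12. Isg20, an exonuclease that degrades viral RNA, read 5.55, 5.22 and 5.17 with MEKi at 24 h, against 5.26, 5.22 and 5.28 with DMSO. At 72 h it read 6.94, 7.02 and 7.15 with MEKi, against 6.59, 5.88 and 6.28 with DMSO. It overlapped at 24 h and was apart at 72 h, where it was higher by 0.79 ± 0.16 (adjusted p = 0.0151).

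Eif2ak2 encodes PKR, the kinase that halts translation when it binds double-stranded RNA. It read 7.17, 7.18 and 7.09 with MEKi at 24 h, against 6.85, 6.89 and 6.84 with DMSO. Its 72 h signals were 7.28, 7.43 and 7.27 with MEKi, against 7.11, 7.25 and 7.09 with DMSO. The difference was 0.29 ± 0.06 at 24 h (adjusted p = 0.0251) and 0.18 ± 0.09 at 72 h (adjusted p = 0.305), and its other 2 probe sets, with 0.16 and 0.12 at 24 h, were not called. The remaining members of the group were not called at either time. They were Mx1 and Mx2, GTPases that trap viral particles, Bst2, the tether that holds budding virus on the cell, and Rtp4, a receptor chaperone, with differences between -0.20 (Mx1 at 72 h) and 0.25 (Rtp4 at 72 h). In C57BL/6 mice, the strain of origin of B16, Mx1 carries a deletion that inactivates the protein.

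The OAS enzymes sense double-stranded RNA and make the messenger that switches on RNase L. None of the 5 was called with MEKi at either time, with 0 at p under 0.05 before adjustment at 24 h and 1, Oasl2, at 72 h. Their differences ran from -0.06 (Oasl1) to 0.05 (Oas2) at 24 h and from 0.03 (Oasl1) to 0.24 (Oasl2) at 72 h. Oas1a, whose promoter is shown above with its pair of overlapping cores, averaged 7.03 with MEKi and 7.07 with DMSO at 24 h, and 7.42 with MEKi and 7.31 with DMSO at 72 h. The 3 IFITM proteins, which keep viruses from fusing with endosomal membranes, had differences below 0 at both times and none was called. Ifitm3 was the largest of these, with 8.16, 7.82 and 8.14 for MEKi at 24 h, against 8.81, 8.26 and 8.59 for DMSO. All 3 MEKi arrays were below, by 0.51 ± 0.15 (adjusted p = 0.068), and at 72 h the arrays overlapped, with a difference of -0.16 ± 0.17 (adjusted p = 0.688). At 24 h Ifitm3 was called lower in 6 alternatives, with adjusted p between 0.0172 (replicate block) and 0.0495 (array weights), 1 of them without DMSO array 2 (0.0383). At 72 h Ifitm2 was called lower in 3 alternatives, with adjusted p between 0.0256 and 0.0442.

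Of the 3 sensors that recognise viral RNA in the cytosol, Ddx58 (RIG-I) rose at 72 h. It read 6.51, 6.49 and 6.08 with MEKi at 24 h, against 6.37, 6.01 and 6.06 with DMSO, and 7.86, 7.29 and 7.63 with MEKi at 72 h, against 6.88, 6.82 and 7.06 with DMSO. The arrays overlapped at 24 h and were apart at 72 h, with differences of 0.21 ± 0.14 and 0.67 ± 0.14 (adjusted p = 0.407 and 0.0174). Its other 2 probe sets gave 0.16 and 0.43 at 72 h and were not called. The call of Ddx58 at 72 h was lost in 4 of 6 fits that left out 1 array, with an adjusted p of up to 0.0658. Ifih1 (MDA5) averaged 6.04 with MEKi and 5.90 with DMSO at 24 h, and 7.05 with MEKi and 6.64 with DMSO at 72 h. Its 72 h difference of 0.41 ± 0.14 had an adjusted p of 0.133, and of 0.0327 with the replicate number as a block, the only member whose call at 72 h the block changed. Without DMSO 72 h array 1 it was 0.0427. Dhx58 (LGP2), which tunes the other sensors, had differences of -0.12 at 24 h and 0.19 at 72 h and was not called.

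**Figure D3:**
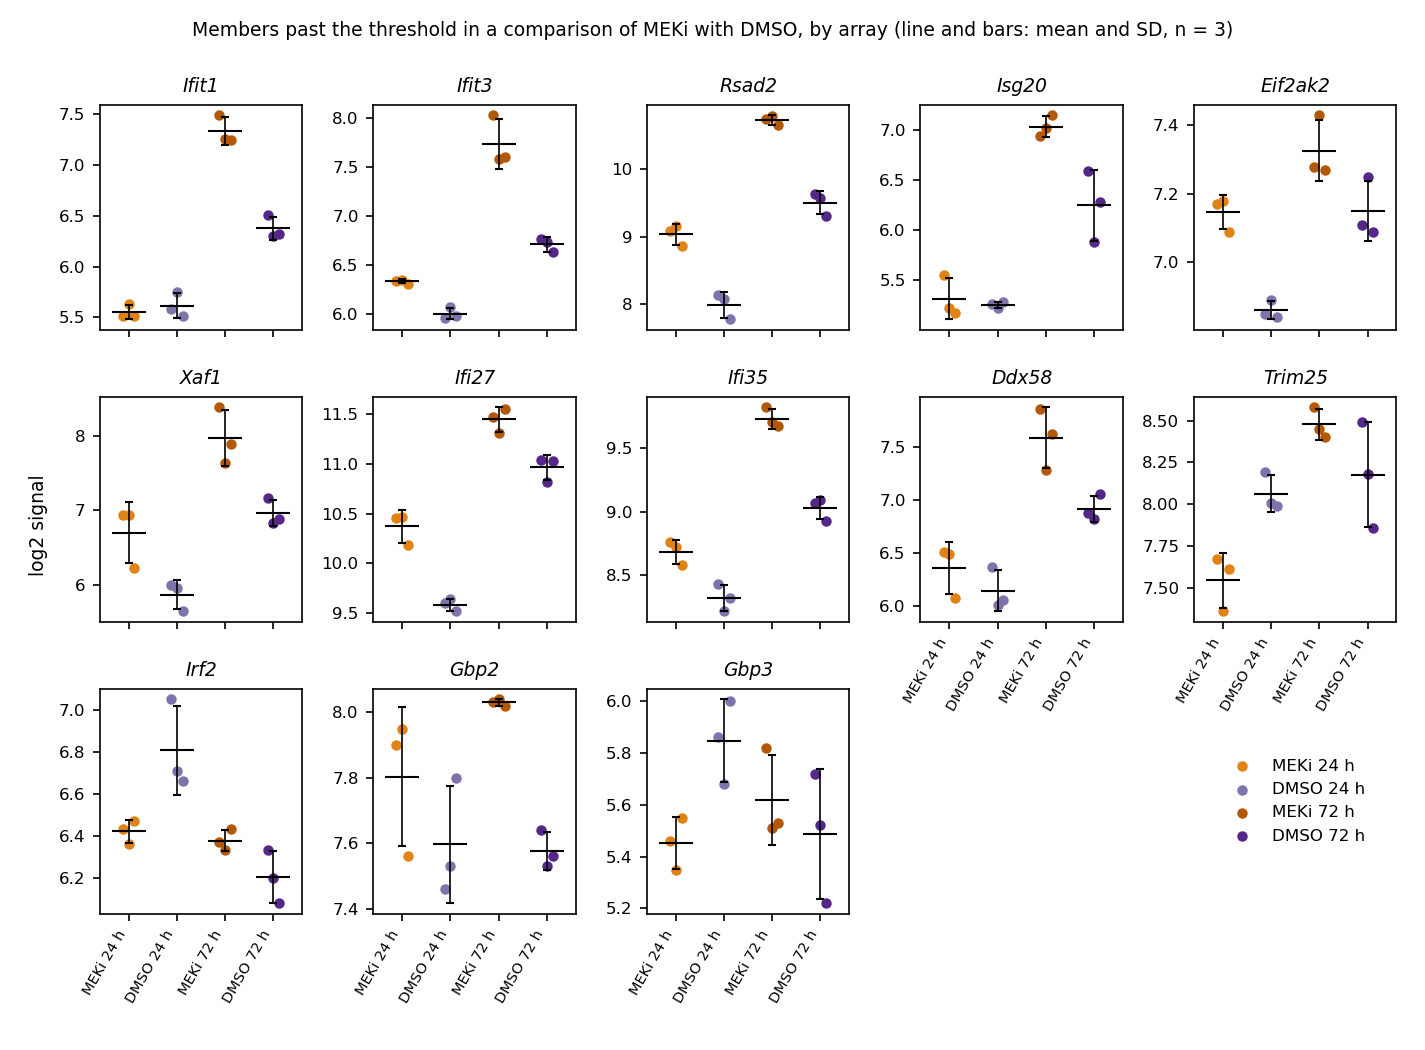
Log2 signal on each array of the 13 members called in MEKi against DMSO at 24 h or 72 h or in the difference of these effects, with a panel and scale of its own for each gene. Points are arrays, black lines and bars the mean and SD of 3 arrays. Rsad2 is higher with MEKi at both times, Ifit1 at 72 h, and Trim25 lies below DMSO at 24 h.

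Among 5 measured genes that attach or remove ISG15 or belong to the PARP group, Trim25, the ubiquitin ligase that activates RIG-I, was called lower at 24 h. It read 7.67, 7.36 and 7.61 with MEKi at 24 h, against 8.19, 8.01 and 7.99 with DMSO. After 72 h the readings were 8.58, 8.45 and 8.40 with MEKi, against 8.49, 8.18 and 7.86 with DMSO. Every MEKi array was below DMSO at 24 h, and the arrays overlapped at 72 h. The differences were -0.52 ± 0.10 and 0.30 ± 0.14 (adjusted p = 0.0171 and 0.279), and the other 2 probe sets gave -0.57 and -0.22 at 24 h, of which the first was called (adjusted p = 0.0305). Usp18, the protease that removes ISG15 and dampens the receptor, averaged 4.88 with MEKi and 4.74 with DMSO at 24 h, and 5.59 with MEKi and 5.43 with DMSO at 72 h. Parp14, Dtx3l and Parp9 follow each other in the genome, and DTX3L and PARP9 form a ubiquitin ligase pair. Their differences were 0.31, -0.13 and 0.16 at 24 h and 0.25, -0.27 and 0.03 at 72 h, in that order, and none was called. Parp14 at 24 h passed with the replicate block (adjusted p = 0.0365) and with array weights (0.046).

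None of the 5 IRF and STAT factors was called in either comparison with DMSO by limma, where p before adjustment was under 0.05 for Irf1 and Irf2 at 24 h and for Irf9 at 72 h. Irf2, a repressor of interferon-induced promoters, read 6.43, 6.36 and 6.47 with MEKi at 24 h, against 7.05, 6.71 and 6.66 with DMSO. At 72 h it read 6.37, 6.33 and 6.43 with MEKi, against 6.33, 6.20 and 6.08 with DMSO. MEKi was below DMSO on all arrays at 24 h, by 0.39 ± 0.10 (adjusted p = 0.058), and overlapped it at 72 h, with 0.17 ± 0.09 (adjusted p = 0.327). At 24 h Irf2 was called lower in 5 alternatives, with an adjusted p of 0.0215 with a trended robust prior, 0.0264 among brighter probe sets, 0.0298 with all 12 arrays in 1 fit, 0.0352 over the mean of probe sets and 0.0414 with array weights. Irf9 and Stat2, which encode factors of the complex at the response element, had differences of 0.05 and 0.14 at 24 h and of 0.33 and -0.02 at 72 h. Irf1, an activator that interferon gamma induces, averaged 7.37 with MEKi and 7.56 with DMSO at 24 h and 7.71 with MEKi and 7.65 with DMSO at 72 h. Irf7, the factor that amplifies interferon alpha, had -0.05 at 24 h and 0.14 at 72 h.

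The interferon-induced GTPases attack the vacuoles of intracellular microbes. Gbp2 read 7.90, 7.95 and 7.56 with MEKi at 24 h, against 7.46, 7.53 and 7.80 with DMSO, and 8.03, 8.04 and 8.02 with MEKi at 72 h, against 7.64, 7.53 and 7.56 with DMSO. The arrays overlapped at 24 h and were apart at 72 h, with differences of 0.21 ± 0.12 and 0.45 ± 0.08 (adjusted p = 0.375 and 0.00833). Its other probe set gave 0.36 at 72 h (adjusted p = 0.0218). Gbp3, which lies close to Gbp2 on chromosome 3, read 5.46, 5.35 and 5.55 with MEKi at 24 h, against 5.86, 5.68 and 6.0 with DMSO. Its 72 h signals were 5.82, 5.51 and 5.53 with MEKi, against 5.72, 5.52 and 5.22 with DMSO. It was lower with MEKi by 0.39 ± 0.09 on the log2 scale at 24 h (adjusted p = 0.0394) and overlapped at 72 h, with 0.13 ± 0.14 (adjusted p = 0.662). Gbp7, Igtp and Irgm1 were not called, with differences between -0.15 and 0.16 at 24 h and between 0.15 and 0.37 at 72 h.

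The number of calls at 24 h depended on single arrays. With all arrays 8 members were called, and there were 3 without MEKi array 1, 2 without MEKi array 2, 3 without DMSO array 1 and 3 without DMSO array 3. Without MEKi array 3 the same 8 were called. At 72 h, 7 of the 9 were called without MEKi array 3, where Ifi27 had 0.43 (adjusted p = 0.0554) and Ddx58 had an adjusted p of 0.0506. With the 2-fold limit on size left aside, Rsad2 and Ifi27 were called at 24 h in each of 14 alternatives, and so were Ifit1, Ifit3, Rsad2, Xaf1, Ifi35 and Gbp2 at 72 h. Among 6 fits that left out 1 array, the 72 h call was lost in 4 for Ddx58, 3 for Ifi27 and 1 for Isg20.

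Whether the effect of MEKi differed between the times was tested by the difference of the effects, the MEKi minus DMSO difference at 72 h less that at 24 h. It was called higher for 4 of 39 members, against 1.97% of all genes, and lower for 0, against 2.1%, with Ifi27 the only member on the lower side at p under 0.05 before adjustment in limma. The 4 were Ifit1, with 1.02 ± 0.13 (adjusted p = 0.00189), Trim25, with 0.82 ± 0.19 (adjusted p = 0.0329), Ifit3, with 0.70 ± 0.15 (adjusted p = 0.0206), and Irf2, with 0.56 ± 0.14 (adjusted p = 0.048). For Ifit1 and Ifit3 the effect was thus larger at 72 h, and for Trim25 and Irf2 a fitted value below 0 at 24 h stood against one above 0 at 72 h. Rsad2 and Xaf1, higher at both times, had differences of 0.18 ± 0.16 and 0.18 ± 0.29 between the times (adjusted p = 0.661 and 0.846), with 95% intervals of -0.16 to 0.53 and -0.44 to 0.79. That of Xaf1 was -0.06 without MEKi 24 h array 3. Isg20 had 0.73 ± 0.21 (adjusted p = 0.0792). With the 2-fold limit left aside, Ifit1 was called in all 20 alternatives, Trim25 was lost in 7 and Irf2 in 13, and 1 member was called without DMSO 24 h array 2 or MEKi 24 h array 1, and 2 were called without DMSO 24 h array 1, MEKi 24 h array 2 or MEKi 72 h array 1 or 2. Without MEKi 24 h array 3 Irf2 had an adjusted p of 0.0662, without MEKi 72 h array 3 it had 0.0825, and in each case the other 3 members were called.

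The comparisons of 72 h with 24 h within each arm call on the same arrays as those of MEKi with DMSO, so the values are given side by side. In MEKi, 27 of 39 members were higher at 72 h than at 24 h, against 13.5% of all genes, and 0 were lower, against 16%. In DMSO, 25 were higher, against 14.2%, and 1 was lower, against 16.9%. In MEKi, Ifit2 was the only member on the lower side at p under 0.05 before adjustment in limma. The median difference over the members was 0.61 in MEKi and 0.34 in DMSO, beside 0.04 over all genes in each. A set of 21 members was higher over time in both arms. The share of all genes higher in both was not computed, and it cannot exceed the 13.5% higher in MEKi.

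Ifitm3 had the largest differences over time, 2.00 ± 0.16 in MEKi and 1.64 ± 0.15 in DMSO (adjusted p = 4.51e-05 and 0.000197). Its arrays read 10.30, 9.64 and 10.18 at 72 h and 8.16, 7.82 and 8.14 at 24 h in MEKi, and 10.45, 10.06 and 10.08 at 72 h and 8.81, 8.26 and 8.59 at 24 h in DMSO. No array of one time overlapped the other. Of its 2 genomic neighbours, Ifitm1 was called in neither arm, with -0.01 in MEKi and 0.07 in DMSO, and Ifitm2 was called in DMSO, with 0.13 in MEKi and 0.31 in DMSO. Rsad2 rose by 1.70 in MEKi and by 1.52 in DMSO, and Ifi27 by 1.07 in MEKi and by 1.38 in DMSO. Ifit1 rose by 1.78 in MEKi and by 0.76 in DMSO, and Isg20 by 1.72 in MEKi and by 1.00 in DMSO.

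Ddx58 and Ifih1, of the RNA sensors, rose over time in both arms. Ddx58 was higher at 72 h by 1.23 in MEKi and by 0.77 in DMSO, Ifih1 by 1.01 in MEKi and by 0.74 in DMSO, and Dhx58 by 0.31 in MEKi (adjusted p = 0.0482, lost in 9 of 13 alternatives), with 0.00 in DMSO. Of the modifiers, Parp9, Parp14 and Usp18 rose in both arms, by 0.61 to 0.71 in MEKi and by 0.69 to 0.74 in DMSO. Trim25 rose in MEKi, by 0.93 ± 0.10 (adjusted p = 0.00016), and had 0.11 ± 0.15 in DMSO (adjusted p = 0.614), a contrast that the difference of the effects above tested. Irf9 rose by 0.73 in MEKi and by 0.46 in DMSO, and Irf2 was the member that fell in DMSO, by 0.60 ± 0.12 on the log2 scale (adjusted p = 0.00544), with -0.04 ± 0.07 in MEKi. Of the GTPases, Gbp7 and Igtp rose in both arms, Irgm1 in MEKi, and Gbp2 and Gbp3 in neither. Of the OAS enzymes, Oas1a and Oas2 rose in both arms, by 0.24 to 0.39. Ifit2, Oas3, Oasl2, Mx1 and Ifitm1 were called in none of the 5 comparisons.

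Array-wide shifts ran beside these changes over time. Genes dimmer than the median probe set had a median difference of 0.08 over time in MEKi and of 0.09 in DMSO, and 7.99% and 8.09% of them were called higher, against 1.09% and 0.817% called lower. Among the 11 dim members, which include Usp18, Parp14, Gbp7, Rtp4 and Stat2, 6 were called higher in MEKi and 5 in DMSO, with medians of 0.31 and 0.24. The summed signal of the 14 immune markers was 608 to 632 on MEKi arrays at 72 h and 506 to 539 at 24 h, and 552 to 588 on DMSO arrays at 72 h and 506 to 511 at 24 h. Of these 14 markers, 3 were called higher over time in each arm, where all genes had 13.5% in MEKi and 14.2% in DMSO. They were Cd3e, Cd8a and Csf1r in MEKi and Ptprc, Cd3g and Csf1r in DMSO, by 0.25 to 0.36. Cd68 alone was called in MEKi against DMSO at 72 h, by 0.66 (adjusted p = 0.0279). For Dap, a bacterial RNA spiked in to control labelling, the log2 signal of the 3′ probe set exceeded that of the 5′ probe set by 1.34 to 1.43 in MEKi at 72 h and 1.96 to 2.16 at 24 h, and 1.40 to 1.47 in DMSO at 72 h and 2.01 to 2.07 at 24 h. The part of these shifts in the members' changes was not tested. The 28 brighter members were called higher in 75% of cases in MEKi and in 71.4% in DMSO, where all genes of that range had 16.9% and 17.9% and medians of -0.02 and -0.03.

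**Figure D4:**
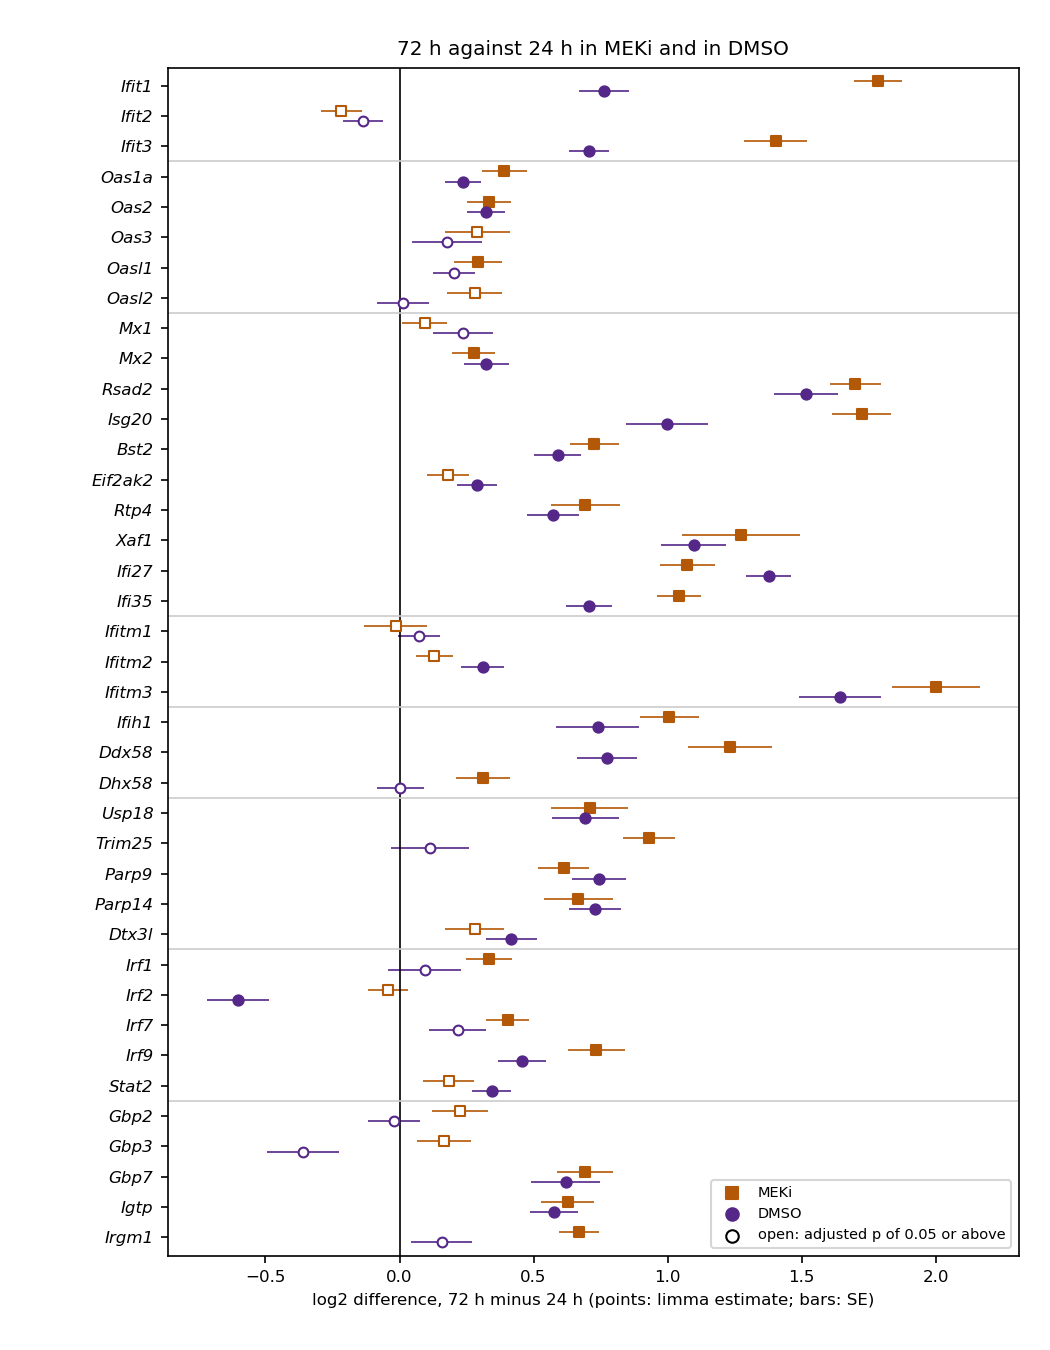
Log2 difference of 72 h minus 24 h for each of 39 members (rows, in blocks by role) in MEKi (squares) and in DMSO (circles), with bars for the SE. Filled symbols passed an adjusted p of 0.05, 27 members in MEKi and 26 in DMSO, of which Irf2 in DMSO is the one to the left of 0.

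**Figure D5:**
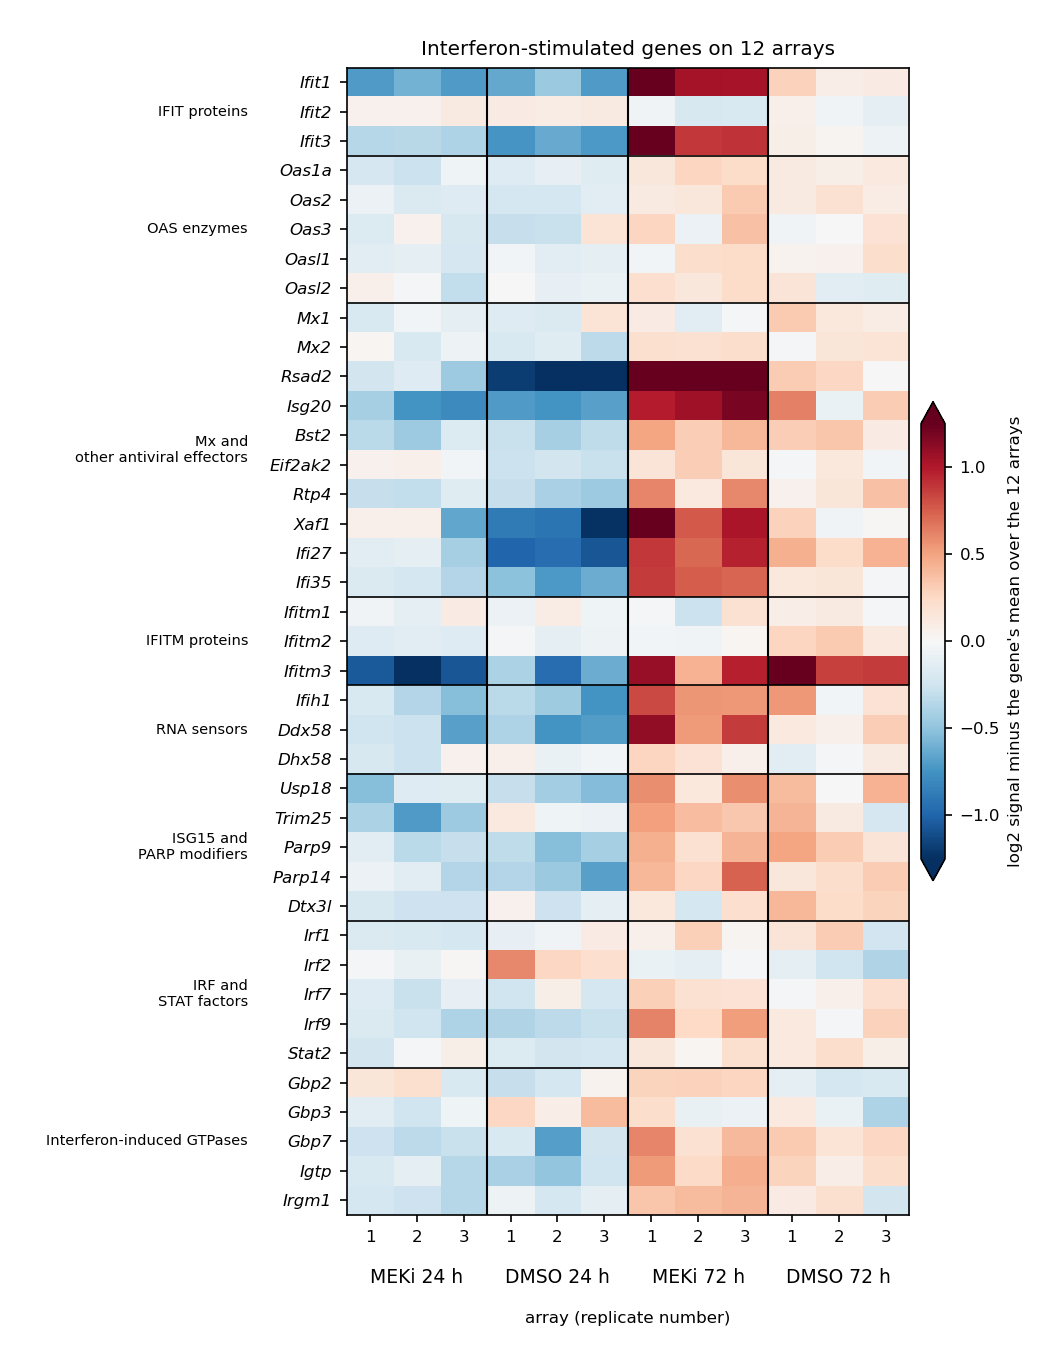
Log2 signal of 39 members (rows) on 12 arrays (columns, by group and replicate number) minus the mean of the gene over the 12 arrays, in blocks by role. Red is above and blue below that mean, and values beyond the ends of the colour bar are drawn in its end colours. The highest mean is that of MEKi at 72 h for 30 members, of DMSO at 72 h for 6 (Mx1, Ifitm1, Ifitm2, Ifitm3, Dtx3l, Stat2) and of DMSO at 24 h for 3 (Ifit2, Irf2, Gbp3). The matching shares of all genes were not computed.

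Calls fell on members with and without the promoter motif. Of the 18 measured members with the core of the interferon-stimulated response element in a window, 5 were called higher with MEKi at 72 h, and of the 12 measured members with a window and no such match, 3 were. At 24 h the counts were 3 of 18 and 2 of 12. Over time 11 of 18 and 8 of 12 were called higher in MEKi, and 13 of 18 and 5 of 12 in DMSO. Of all genes, 4.03% were called higher with MEKi at 72 h and 5.01% at 24 h. Over time 13.5% of them were called higher in MEKi and 14.2% in DMSO. The median difference at 72 h was 0.175 with the core and 0.188 without it.

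Of 90 other genes of the interferon pathway, 77 had a probe set of their own. With MEKi at 24 h, 7 of the 77 (9.09%) were called higher, where all genes had 5.01%, and 3 (3.9%) lower, where all genes had 5.86%. At 72 h 5 (6.49%) were called higher, where all genes had 4.03%, and 2 (2.6%) lower, where all genes had 5.14%. Cxcl10, the chemokine that draws T cells, read 8.34, 8.10 and 8.27 with MEKi at 24 h, against 9.42, 9.35 and 9.32 with DMSO. After 72 h the readings were 9.39, 9.66 and 9.03 with MEKi, against 8.84, 9.03 and 8.27 with DMSO. It was lower with MEKi on every array at 24 h, by 1.13 ± 0.08 on the log2 scale (adjusted p = 0.000815), and had 0.65 ± 0.20 at 72 h (adjusted p = 0.0912). The effects differed by 1.77 ± 0.25 (adjusted p = 0.00288). Ccl5, another T cell chemokine, read 5.95, 5.89 and 5.62 with MEKi at 24 h, against 6.13, 6.13 and 5.94 with DMSO, and 8.34, 8.41 and 7.99 with MEKi at 72 h, against 7.09, 7.23 and 7.15 with DMSO. It overlapped at 24 h and was higher at 72 h by 1.09 ± 0.11 (adjusted p = 0.00108), and the effects differed by 1.34 ± 0.16 (adjusted p = 0.00136).

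Samd9l and Cmpk2 led the called genes at 24 h beside Cxcl10. Samd9l, an antiviral restriction factor, was higher with MEKi by 1.10 ± 0.12 at 24 h (adjusted p = 0.00308) and had 0.45 ± 0.12 at 72 h (adjusted p = 0.0571). Cmpk2, next to Rsad2, was higher by 0.65 ± 0.11 at 24 h (adjusted p = 0.0107) and had 0.06 ± 0.16 at 72 h (adjusted p = 0.883), with averages of 5.74 in MEKi and 5.68 in DMSO. At 72 h the called genes besides Ccl5 were Ticam1, the adaptor of TLR3, with 0.49 (adjusted p = 0.0466), Ifnlr1, a receptor chain for interferon lambda, with 0.44 (adjusted p = 0.0191), and Sting1 and its kinase Tbk1, the arm that senses cytosolic DNA, each with 0.42 (adjusted p = 0.0163 and 0.0147). Sting1 and Tbk1 were also called in the difference of the effects, with 0.58 and 0.48 (adjusted p = 0.00702 and 0.0148). The 2 lower genes at 72 h were Ifi44l, with -0.42 (adjusted p = 0.0293), and Ptpn2, a phosphatase that dephosphorylates JAK and STAT proteins, with -0.40 (adjusted p = 0.0446). Ifi44l was dim, between 2.85 and 3.57 on every array, below the median probe set mean of 5.36. Whether its transcript was present at all was not tested. Ptpn2 was also lower at 24 h, with -0.35 (adjusted p = 0.0229). Tbk1, Ptpn2 and Ifi44l are named to complete these counts, after their values were seen.

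Upstream of the members, calls differed between groups of genes. Of 12 measured genes of nucleic acid sensing, 1 was called higher with MEKi at 24 h, 3 at 72 h and 0 lower. Of 9 measured receptors and kinases, 1 was called higher at each time and 0 lower. Of 7 measured interferon genes, 1 was higher with MEKi at 24 h and 0 at 72 h by limma. All genes had 5.01% called higher at 24 h and 4.03% at 72 h. Of the interferon genes, 0 had p under 0.05 before adjustment at 72 h. The one called at 24 h was Ifna1, with 0.38 (adjusted p = 0.0178), whose probes may also bind other interferon alpha genes. Ifnb1, the interferon beta gene, averaged 4.13 with MEKi and 4.03 with DMSO at 24 h, and 4.38 with MEKi and 4.44 with DMSO at 72 h, below the median probe set mean of 5.36, and was called in neither (adjusted p = 0.551 and 0.779). Ifnar1, a chain of the type I receptor, was higher by 0.30 ± 0.07 at 24 h (adjusted p = 0.028) and had -0.06 ± 0.08 at 72 h (adjusted p = 0.736). Socs1, the feedback inhibitor of JAK kinases, was called at neither time, with -0.11 and 0.23. Over time, 21 of the 77 (27.3%) were higher and 5 (6.49%) lower in MEKi, where all genes had 13.5% and 16%. In DMSO 21 (27.3%) were higher and 7 (9.09%) lower, where all genes had 14.2% and 16.9%.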

How the data were processed

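Total RNA of B16-OVA cells treated with MEKi or DMSO was hybridised by the authors to Affymetrix mouse genome arrays, 12 in 4 groups of 3. The deposited values were log2 expression values that the authors made by RMA, which corrects background, makes the arrays' distributions equal and summarises each probe set, and its version is not given in the sources used here. Of 45101 probe sets, 64 controls were left out and 45037 were tested. By GEO's platform annotation, 34945 had 1 gene, 932 several and 9160 none, and each gene was read from the brightest probe set paired with it alone. Array medians lay between 5.31 and 5.42. Precision is limited by how many arrays there were.

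Each pair of groups was fitted on its own 6 arrays, and the difference of the effects on all 12, with lmFit and eBayes in limma 3.58.1 (R 4.3.3). Tests were two-sided with Benjamini-Hochberg adjustment over all probe sets, and fits were tested on simulated data. No array was dropped or imputed. All members are named, those called in a MEKi comparison with every array. Of other pathway genes the 3 largest calls of each MEKi comparison are named, with Ifnb1, Ifnar1 and Socs1 in any case. Members and lists were chosen with earlier results of these data known. Promoter motifs and gene order were read in Python 3.11.15 from RefSeq tables (GRCm38.p6).

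Alternatives were a change of at least 2-fold, brighter probe sets, a mean over a gene's probe sets, recentring, requantiling, array weights, a trended robust prior, all 12 arrays in 1 fit, each array left out, and the replicate number as a block. At 72 h the deviations of same-numbered arrays from their group means correlated at 0.13 to 0.189 across probe sets. Those of differently numbered arrays correlated at -0.127 to -0.03. Such deviations cancel out within a group, so these ranges are not independent of each other. What equal numbers stand for was not tested.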

Additional observations from a re-analysis of the deposited data

Results flagged for a closer look

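The effect of MEKi on 8 genes differed between 72 h and 24 h by the test of the difference itself in limma, each given as the log2 effect at 72 h minus that at 24 h. Among the interferon-stimulated genes these were Ifit1 with 1.02, Trim25 with 0.82, Ifit3 with 0.70 and Irf2 with 0.56. Of 20 alternatives, with the 2-fold limit left aside, the call was lost in 13 for Irf2, in 7 for Trim25, in 2 for Ifit3 and in 0 for Ifit1. Among the other genes of the pathway they were Cxcl10 with 1.77, Ccl5 with 1.34, Sting1 with 0.58 and Tbk1 with 0.48. Groups of 3 arrays were too small to test for an outlying array.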

How the results depend on the processing

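No member that was called changed its direction under any alternative. With a change of at least 2-fold also asked for, the members called were 1 at 24 h, 3 at 72 h, 1 for the difference of the effects, 10 over time in MEKi and 4 over time in DMSO, since the 2-fold limit leaves out smaller changes. Leaving out 1 array at a time gave 2 to 8 members at 24 h, 7 to 9 at 72 h, 1 to 5 for the difference of the effects, 22 to 25 over time in MEKi and 23 to 25 over time in DMSO. Averaging all probe sets of each gene gave a median of 0.39 over time in MEKi, where the brightest gave 0.61, and the cause was not tested. With the replicate block, 10 members were called at 24 h (7 higher, 3 lower), 10 at 72 h, 4 for the difference, 25 over time in MEKi and 25 over time in DMSO. At 24 h the block added Ifitm3 (adjusted p = 0.0172) and Parp14 (adjusted p = 0.0365). Same-numbered arrays correlated at 0.0729 to 0.151 at 24 h, where differently numbered arrays had -0.156 to 0.0322. At 24 h, as at 72 h, the 2 ranges did not overlap. Deviations from a group mean cancel out within the group, so the 2 ranges are not independent of each other. Over time in MEKi the ranges overlapped, with -0.0174 to 0.107 for the same number and -0.143 to 0.1 for different numbers. Over time in DMSO they were 0.00558 to 0.0339 and -0.0224 to 0.00305. A block within each time, an alternative chosen after seeing the data, gave 4 members for the difference, with Gbp3 (adjusted p = 0.0328) in place of Irf2. At 72 h Ifitm2 passed as lower with a trended robust prior (adjusted p = 0.032), with array weights (0.0442) and in 1 fit of all 12 arrays (0.0256). With the 2-fold limit left aside, single calls lost in most alternatives were Irf2 in the difference, in 13 of 20, and Dhx58 and Oasl1 over time in MEKi, in 9 of 13 and 8 of 14. Signals near the arrays' lower end compress differences, so a dim member that was not called may still differ.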
